A study of Homo sapiens with 6 samples.

Results

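The replication-dependent histone genes are the multicopy genes that supply the linker histone H1 and the core histones H2A, H2B, H3 and H4 for newly made DNA. They were taken as all protein-coding genes whose GENCODE 29 name starts with HIST1H, HIST2H, HIST3H or HIST4H, which gave 71 of the 58051 genes in the expression table. Of these, 6 encode H1, 17 H2A, 18 H2B, 15 H3 and 15 H4. The HIST1 cluster on chromosome 6 holds 55 of them, the HIST2 cluster on chromosome 1 holds 12, the HIST3 group on chromosome 1 holds 3, and the single HIST4 gene lies on chromosome 12. Current symbols are used below; 66 came from the table of gene symbols and 5 from the synonyms in RefSeq.

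RNA from cells labelled NT2 (NTera-2, a human embryonal carcinoma line) was sequenced in 6 libraries. The titles assign 3 of them to piR-36249 mimics, which stand for a small RNA of the piRNA kind, and 3 to a piR-36249 scramble as control. The treatment field also speaks of overexpressed mimics and scramble, whereas the genotype field calls the mimic cells a piR-36249 knockdown and the scramble cells control. Grouping followed the titles, and each difference is mimic minus scramble. Nothing in the labels tells if replicates were separate cultures; p-values therefore rest on the spread of these libraries alone, and that spread may be technical. Doses and times were not stated in the labels. In bulk RNA, a change in the number of cells that express a gene and a change in its RNA per cell cannot be told apart.

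A replication-dependent histone mRNA ends in a conserved stem-loop in place of a poly(A) tail. The stem-loop-binding protein SLBP holds this structure, and the U7 small nuclear ribonucleoprotein directs the cut behind it, while NPAT drives transcription of the clusters when cells enter S phase. Some of these genes also give longer, polyadenylated or spliced transcripts, which are known from differentiated and non-dividing cells. Whether the libraries were made from poly(A)-selected RNA is not given in the sources used here, and total RNA is named as the extracted molecule.

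The stem-loop was searched with a pattern that allows several letters at some positions, so a version outside the pattern would be missed. It was found in the annotated transcripts of 32 of the 71 genes. Of the other genes, 33 have a GENCODE 29 model that holds the coding part only and so ends before any stem-loop, which means that reads from the 3′ end of those mRNAs had no exon to be counted in. The 16 bases of the stem-loops found came in 6 versions, with the first base 22 to 67 bases behind the stop codon. The stem-loops of 4 genes called higher with mimic and of 3 that were not called are shown because they are the structure that sets this family apart from other mRNAs. Capitals mark the 16 bases of stem and loop, with 5 flanking bases on each side, as DNA letters of the sense strand from the GENCODE 29 transcripts (GRCh38).

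H2AC6 (chr6:26124669-26124684, plus strand): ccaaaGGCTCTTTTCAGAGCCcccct
H2BC5 (chr6:26158587-26158602, plus strand): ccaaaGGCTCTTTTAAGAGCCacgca
H2BC4 (chr6:26123472-26123487, minus strand): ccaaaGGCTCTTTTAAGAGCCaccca
H4C8 (chr6:26285131-26285146, minus strand): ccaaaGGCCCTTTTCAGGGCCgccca
H4C9 (chr6:27139654-27139669, plus strand): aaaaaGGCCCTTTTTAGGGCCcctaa
H2AC11 (chr6:27133515-27133530, plus strand): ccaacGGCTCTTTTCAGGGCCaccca
H3C6 (chr6:26225596-26225611, plus strand): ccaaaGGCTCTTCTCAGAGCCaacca

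The version of H2AC6 was the commonest, in 17 genes of the H2A, H2B and H3 classes. That of H2BC5 and H2BC4 stood in 5 genes, the G+C-richer one of H4C8 in 5 H4 genes, and that of H4C9 in 3 H4 genes. H2AC11 and H3C6 each carried a version found in 1 gene.

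Promoters were read from RefSeq (GRCh38.p14) for 66 of the 71 genes, over 250 bases before to 50 after the start. Genes of a histone class tend to share promoter elements, so the stretches before the start of 4 genes called higher are shown, with matches to 3 motifs in capitals. The motifs, searched on both strands, were the octamer ATTTGCAT, the box CCAAT and the box with the letters TATAAA, called TATA box here. A match on the other strand stands in capitals as its reverse complement. Matches of the TATA motif on the 2 strands can overlap each other, as in the first one of H2BC11.

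H2AC6 (chr6:26123922-26124171, plus strand): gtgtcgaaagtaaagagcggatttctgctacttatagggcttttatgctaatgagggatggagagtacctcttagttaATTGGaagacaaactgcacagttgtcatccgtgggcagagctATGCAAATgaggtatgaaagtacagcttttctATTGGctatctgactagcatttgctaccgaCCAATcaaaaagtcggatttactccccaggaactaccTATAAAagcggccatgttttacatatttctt
H2BC5 (chr6:26157871-26158120, plus strand): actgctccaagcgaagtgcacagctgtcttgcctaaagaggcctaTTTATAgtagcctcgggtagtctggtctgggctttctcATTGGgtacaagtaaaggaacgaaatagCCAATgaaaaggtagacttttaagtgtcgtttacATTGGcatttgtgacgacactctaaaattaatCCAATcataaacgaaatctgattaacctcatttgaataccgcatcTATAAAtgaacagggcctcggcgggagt
H2BC11 (chr6:27132796-27133045, minus strand): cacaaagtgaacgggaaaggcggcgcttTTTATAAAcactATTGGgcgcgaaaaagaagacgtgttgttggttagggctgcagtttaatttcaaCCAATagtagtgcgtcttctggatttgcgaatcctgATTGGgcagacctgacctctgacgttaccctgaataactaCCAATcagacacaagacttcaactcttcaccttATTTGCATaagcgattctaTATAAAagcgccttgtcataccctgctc
H2BC17 (chr6:27893175-27893424, plus strand): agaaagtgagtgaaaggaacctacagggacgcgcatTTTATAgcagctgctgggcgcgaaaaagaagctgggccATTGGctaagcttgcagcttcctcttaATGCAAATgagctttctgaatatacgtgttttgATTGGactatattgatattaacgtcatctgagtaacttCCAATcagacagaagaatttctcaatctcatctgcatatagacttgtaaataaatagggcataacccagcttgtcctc

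The octamer stood in at least 1 promoter of 26 of the 66 genes (39.4%), against 1.77% of 35116 promoters of the whole table. The histone share counts genes and the other share counts single promoters. It was found for 11 of 16 H2A genes (68.8%) and 14 of 18 H2B genes (77.8%). Of 13 H3 genes 1 had it, and none of 6 H1 and 13 H4 genes did. The H3 gene was H3C4, where the match stood in another listed promoter that is the same stretch as the H2AC7 promoter. The promoter nearest to the H3C4 gene had no octamer. H2BC5 was an H2B gene without an exact match in this window. Counted in the same way, the CCAAT box was found for 84.8% of the histone genes against 34.6% of all promoters, and the TATA box for 68.2% against 11.5%. The H2AC6 stretch is also the promoter of H2BC4, which is read in the opposite direction, so both genes hold the same octamer. Other such pairs, among them H2AC11 with H2BC11 and H2AC20 with H2BC21, also share an octamer that was counted for both genes. The H4C8 promoter had no match to any of the 3 motifs.

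The read totals by which the FPKM values (reads per kilobase of exon and M reads) were scaled were recovered from these values. They lay between 48.0 and 62.7 M per library and need not equal the number of reads sequenced. Between 10831 and 15262 recovered reads per library fell in the 71 histone genes. A value with ± is the FPKM mean and SD over 3 libraries; intervals and limits from read numbers cover counting error only. The markers of the labelled cell type were partly absent: NANOG, SOX2, SALL4, TDGF1 and L1TD1 were listed at 0 in all 6 libraries. LIN28B, DNMT3B and PODXL, which such cells also express, were present and were called higher with mimic. The remaining markers, DPPA4, POU5F1 and LIN28A, had means of 0.193, 0.0529 and 0.00157 FPKM over all libraries. The 11 markers of this list summed to 326.3 to 370 FPKM with mimic and 260 to 306.5 with scramble. Most of that sum came from PODXL alone, with 323.2 ± 22.5 FPKM with mimic and 270.2 ± 22.5 FPKM with scramble. The sum therefore says little about the other markers. Of 8 endothelial markers, CDH5, TIE1, ESAM, PECAM1 and TEK were above 1 FPKM in all libraries and 4 of these were called higher with mimic, with a summed level of 388.7 to 407.6 FPKM with mimic and 332.6 to 339.9 with scramble. The 7 fibroblast markers summed to at most 1.49 FPKM in a library and the 5 blood markers to at most 0.146. Whether the cells are of the labelled type was not tested, nor was the part of these markers in the histone results.

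Few of the 71 genes carried most of the signal. Over the 6 libraries, 5 genes had a mean above 10 FPKM and 14 lay between 1 and 10 FPKM. The 4 highest, H2BC12 (139 FPKM over all libraries), H1-2 (72.6), H2AC6 (31.2) and H2BC5 (13.8), held 81.9% of the summed FPKM and 71.3% of the reads of the family. Over all genes, 12912 reached a mean of 0.5 FPKM and were tested; among the histone genes 23 did and 48 did not. The lowest tested gene, H3C2, had a mean of 0.639 FPKM and the highest untested one, H1-4, had 0.433. Each tested gene had a mean of at least 0.638 FPKM in both groups, so none passed the filter through 1 group alone.

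With mimic, 6 of the 23 tested histone genes were higher and 0 were lower (limma on log2(FPKM + 1), Benjamini-Hochberg adjusted p under 0.05 over 12912 genes). They were the H2B genes H2BC5, H2BC17, H2BC4 and H2BC11, the H2A gene H2AC6 and the H4 gene H4C8. The share of 26.1% stands beside 18.7% of all tested genes called higher, and the 0 beside 16.8% called lower. At an unadjusted p under 0.05, 10 were higher and 0 lower, beside 23.8% and 22.1% of all tested genes. The tested histone genes had 17 positive and 6 negative differences, with a median of 0.17 on the log2 scale against 0.00 over all tested genes. Counts of calls varied with the settings, from 3 higher without the filter on low values to 8 higher on the TPM scale.

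**Figure D1:**
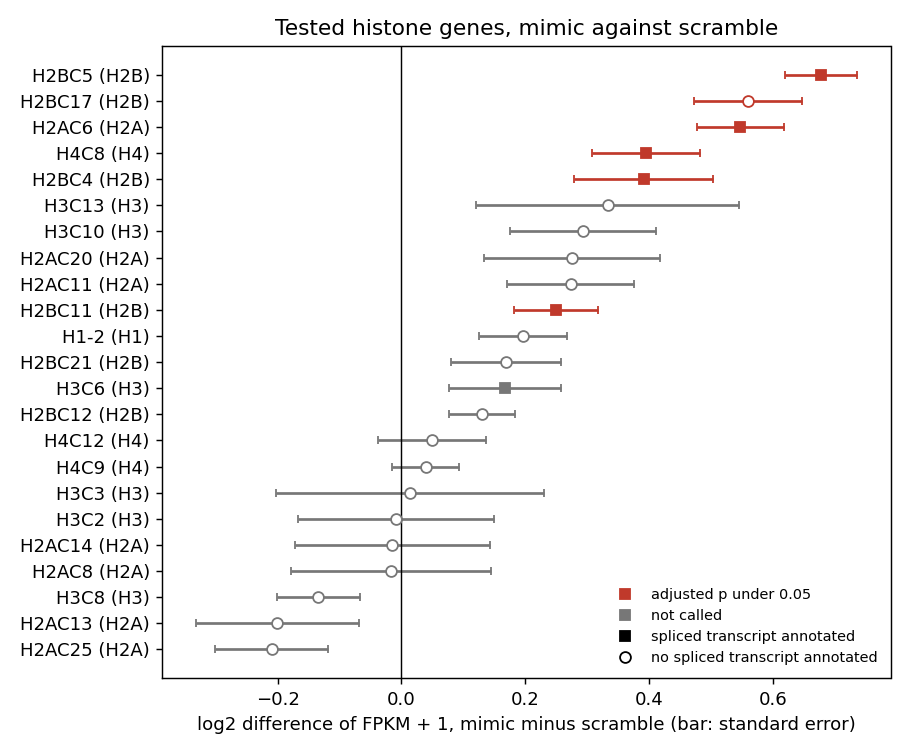
Log2 difference of FPKM + 1, mimic minus scramble, for the 23 tested histone genes, with the standard error as a bar. Red marks an adjusted p under 0.05 (limma), and filled squares mark genes with an annotated spliced transcript. The 6 called genes lie between 0.25 and 0.68, and 5 of them are filled squares.

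H2B, which pairs with H2A in the nucleosome, was the class with most calls, 4 of 6 tested genes, and a median log2 difference of 0.32. These are few genes to set beside 18.7% of all tested genes called higher, and the calls of H2BC4 and H2BC11 depended on the settings. H2BC5 (HIST1H2BD, ENSG00000158373, chromosome 6, 26158146 to 26171349, plus strand) had 17.5, 16.1 and 18.1 FPKM in mimic replicates 1 to 3 and 9.74, 10.7 and 10.8 FPKM in scramble replicates 1 to 3. The groups were far apart relative to their spread. Its mean rose from 10.4 ± 0.586 to 17.3 ± 1.02 FPKM, a log2 difference of 0.68 (SE 0.058, limma adjusted p = 0.000151), on 491 to 895 reads per library.

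H2BC17 (HIST1H2BO, ENSG00000274641, chromosome 6, 27893463 to 27893843, plus strand) is a single coding exon of 381 bases in the annotation. It had 1.52, 1.41 and 1.48 FPKM with mimic and 0.711, 0.845 and 0.490 FPKM with scramble. The lowest mimic library lay above the highest scramble library, on 27 to 34 reads per library against 10 to 17. The ratio of the means was 2.15 and the log2 difference 0.56 (SE 0.087, limma adjusted p = 0.00227), which the added 1 FPKM makes smaller than the ratio. H2BC17 was also the 1 member of the family in the authors' deposited table (401 genes), where its log2 fold change was 1.10 (standard error 0.458, adjusted p = 0.0491). That table names no groups and gives the gene's test statistic with the opposite sign, so the direction is read from the FPKM values, which were higher with mimic.

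H2BC4 (HIST1H2BC, chromosome 6, 26114873 to 26123926, minus strand) had 1.82, 1.77 and 2.40 FPKM with mimic and 1.36, 1.52 and 0.986 FPKM with scramble. The groups did not overlap, but the gap between the lowest mimic and the highest scramble library was small beside the spread within each group. The log2 difference was 0.39 (SE 0.113, limma adjusted p = 0.0305). This call was lost in 6 of the 16 alternative settings that tested the gene, with adjusted p up to 0.123 without a filter; leaving out mimic replicate 3, scramble replicate 1 or scramble replicate 3 ended it.

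H2BC11 (HIST1H2BJ, chromosome 6, 27125897 to 27132750, minus strand) had 9.14, 8.39 and 7.90 FPKM with mimic and 6.39, 7.16 and 7.38 FPKM with scramble. Every mimic library was above every scramble library, by a smaller step than for H2BC5. The log2 difference was 0.25 (SE 0.068, limma adjusted p = 0.0242). The call was lost in 5 of 17 settings, with adjusted p up to 0.0817, among them those without mimic replicate 1, mimic replicate 2 or scramble replicate 1.

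H2BC12 (HIST1H2BK, chromosome 6, 27146418 to 27146798, minus strand), the most abundant of the family per length, had 154, 143 and 140 FPKM with mimic and 127, 132 and 140 FPKM with scramble. The groups did not overlap but nearly met, with the lowest mimic library at 140.35 and the highest scramble library at 139.84 FPKM. The log2 difference of 0.13 (SE 0.053) did not pass the test (limma adjusted p = 0.0922), and did pass on the TPM scale (0.0324) and after quantile normalization (0.0174). Of its 50-base stretches, 74.1% also occur in transcripts of other genes, mainly H2BC12L, to which only 0 to 4 reads per library were assigned. H2BC21 (HIST2H2BE, chromosome 1), an H2B gene of the HIST2 cluster, had 2.74 ± 0.262 and 2.33 ± 0.338 FPKM with overlapping groups and a log2 difference of 0.17 (SE 0.089, limma adjusted p = 0.179).

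**Figure D2:**
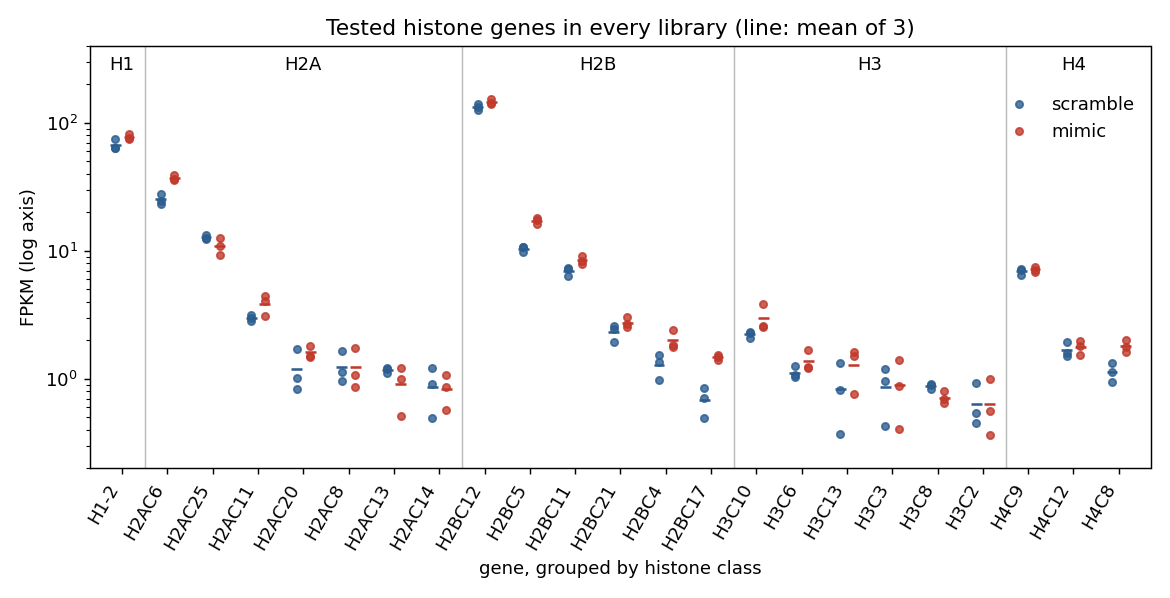
FPKM on a log axis of the 23 tested histone genes in each library, grouped by class, with scramble libraries in blue, mimic libraries in red and the mean of 3 as a line. H2BC12 and H1-2 lie above the rest, and the 2 groups are apart in H2AC6, H2BC5 and H2BC17.

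Among H2A genes, 1 of 7 tested was called higher, beside 18.7% of all tested genes. H2AC6 (HIST1H2AC, ENSG00000180573, chromosome 6, 26124145 to 26139116, plus strand) had 36.7, 35.8 and 39.3 FPKM with mimic and 23.3, 24.3 and 28.0 FPKM with scramble. No mimic library came near the highest scramble library. The mean rose from 25.2 ± 2.48 to 37.2 ± 1.79 FPKM, a log2 difference of 0.55 (SE 0.070, limma adjusted p = 0.000922). H2AC6 had 2143 to 3587 reads per library and supplied 59.8% of the summed H2A level.

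The other H2A genes went both ways without a call. H2AC11 (HIST1H2AG) had 4.43, 4.06 and 3.08 FPKM with mimic and 2.85, 2.98 and 3.16 FPKM with scramble; mimic replicate 3 lay among the scramble libraries, and the log2 difference was 0.27 (SE 0.102, limma adjusted p = 0.0733). H2AC25 (HIST3H2A), the H2A gene of the HIST3 group, had 12.6, 11.0 and 9.36 FPKM with mimic and 12.7, 13.2 and 12.5 FPKM with scramble. Mimic replicate 1 lay within the scramble range while the other mimic libraries were below it. Its log2 difference was -0.21 (SE 0.091, limma adjusted p = 0.111), and without mimic replicate 1 it was -0.31 (adjusted p = 0.0205), the 1 call of a histone gene in the lower direction under any of the 17 alternatives. H2AC20 had a log2 difference of 0.28, H2AC13 of -0.20, H2AC8 of -0.02 and H2AC14 of -0.01, all with overlapping groups and all under 2 FPKM in the mean.

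H4, which forms the tetramer with H3, had 3 tested genes and 1 call, few genes to set beside 18.7% of all tested genes called higher. H4C8 (HIST1H4H, ENSG00000158406, chromosome 6, 26277609 to 26285638, minus strand) had 2.03, 1.76 and 1.63 FPKM with mimic and 1.12, 1.34 and 0.950 FPKM with scramble. The groups did not overlap, on 169 to 257 reads per library with mimic and 110 to 153 with scramble. The log2 difference was 0.39 (SE 0.088, limma adjusted p = 0.0107). H4C9 (HIST1H4I), the most abundant H4 gene, had 7.16 ± 0.350 and 6.94 ± 0.363 FPKM, a log2 difference of 0.04 (SE 0.054, limma adjusted p = 0.607). H4C12 had a log2 difference of 0.05 on 23 to 33 reads per library, and its whole sequence recurs in other transcripts.

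None of the 6 tested H3 genes was called, few genes to set beside 18.7% of all tested genes called higher and 16.8% called lower. H3C10 (HIST1H3H) had 2.59, 2.54 and 3.82 FPKM with mimic and 2.07, 2.33 and 2.27 FPKM with scramble; the groups did not overlap, with mimic replicate 3 well above the rest, and the log2 difference was 0.29 (SE 0.117, limma adjusted p = 0.0895). H3C8 (HIST1H3G) had 0.644, 0.798 and 0.691 FPKM with mimic and 0.892, 0.825 and 0.915 FPKM with scramble. It was the only tested histone gene whose mimic libraries all lay below all scramble libraries, with a log2 difference of -0.13 (SE 0.067, limma adjusted p = 0.158). H3C6 and H3C13 had differences of 0.17 and 0.33, and H3C3 and H3C2 of 0.01 and -0.01, with overlapping groups.

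The linker histone H1, which binds DNA where it enters and leaves the nucleosome, was represented by 1 tested gene. H1-2 (HIST1H1C, ENSG00000187837, chromosome 6, 26055787 to 26056428, minus strand) had 81.8, 74.6 and 76.2 FPKM with mimic and 75.4, 63.7 and 64.0 FPKM with scramble. Scramble replicate 1 lay within the mimic range and the other scramble libraries below it. The log2 difference of 0.20 (SE 0.071) had an adjusted p of 0.0642 in limma, and H1-2 passed in 5 of 17 alternative settings, with adjusted p from 0.0114 to 0.195 over all of them.

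Across the 23 genes, 8 had all mimic libraries above all scramble libraries and 1 had the reverse order. Over all tested genes these shares were 26.0% and 23.2%, against 34.8% of the tested histone genes in the higher direction. The 8 were the 6 called genes, H2BC12 and H3C10.

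Levels were also summed over each class, which lessens the weight of how reads were divided among copies within it, although copies of unequal length and copies outside the class still bear on a sum. The H2A sum was 59.0, 56.5 and 57.5 FPKM with mimic and 44.6, 46.2 and 49.5 FPKM with scramble, a ratio of 1.23 ± 0.0719 (error from the SDs of 3 libraries each). The H2B sum was 180 ± 8.03 with mimic and 157 ± 7.83 FPKM with scramble, a ratio of 1.14 ± 0.0765, and the H3 sum had a ratio of 1.14 ± 0.0995. In these 3 classes the groups did not overlap. For H3 they nearly met, with the lowest mimic library at 7.93 and the highest scramble library at 7.82 FPKM. Without H2AC6 the other 16 H2A genes summed to 22.4, 20.7 and 18.3 FPKM with mimic and 21.2, 21.9 and 21.5 FPKM with scramble, a ratio of 0.950 with overlapping groups. Without H2BC12 the other 17 H2B genes had a ratio of 1.41 (34.0 ± 1.29 against 24.2 ± 1.59 FPKM, no overlap). Of these 17, H2BC5 alone had 17.3 ± 1.02 against 10.4 ± 0.586 FPKM. Each tested H2B gene had a higher mean with mimic. Among the untested H2B genes with reads, only H2BC7 and H2BC14 did, and the others had a lower mean. Without H3C10 the other 14 H3 genes had a ratio of 1.05 with overlap. The H1 ratio was 1.14 ± 0.125 and the H4 ratio 1.06 ± 0.0739, with overlapping groups. All 71 genes summed to 336.2 ± 13.0 FPKM with mimic and 291.5 ± 6.23 FPKM with scramble, a ratio of 1.15 ± 0.0511. These sums are led by single genes: H2BC12 made up 44.4% of the whole and H1-2 made up 98.7% of the H1 sum.

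The annotated transcripts of called and other genes were set side by side after their values were seen, and differences between these sets were not tested. A spliced transcript, unusual for this mostly intronless family, is annotated for 13 of the 71 genes, of which 6 were tested and 5 called higher (H2AC6, H2BC5, H2BC11, H2BC4 and H4C8; H3C6 was not called). Of the 58 genes without one, 17 were tested and 1 was called, H2BC17, which has a coding-part-only model with none of the features described here. The median log2 difference was 0.39 over the 6 spliced and 0.05 over the 17 unspliced tested genes. These and the following counts stand beside 18.7% of all tested genes called higher. The sets also differ in read depth. Among the unspliced tested genes, H3C2, H3C3 and H3C13 had only 8 reads in a library. Other unspliced genes without a call were deep, such as H2BC12 with at least 2566 and H1-2 with at least 2161 reads per library. The called unspliced gene, H2BC17, had as few as 10. The lowest of the spliced tested genes, H2BC4, had 44. The part of depth in these counts was not tested. In 6 of the 71 genes a spliced coding transcript is annotated that runs past the stop codon without the stem-loop; 4 of these were tested (H2AC6, H2BC5, H2BC11 and H2BC4) and all 4 were called higher. A poly(A) signal within 50 bases of an annotated end was found in 21 genes, of which 9 were tested and 4 called, against 14 tested and 2 called among the other 50. Gene models with over 200 bases behind the stop codon numbered 25, with 12 tested and 5 called, and models of the coding part only numbered 33, with 9 tested and 1 called. FPKM per gene does not show which of the transcripts the reads came from.

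Pairs of H2A and H2B genes often start back to back. Within 1000 bases, 12 divergent pairs were annotated, 11 of them of an H2A with an H2B gene, and both partners were tested in 3 pairs. H2BC4 and H2AC6, whose starts lie 219 bases apart, were both called higher, at 0.39 and 0.55 on the log2 scale, although H2AC6 stood at 31.2 FPKM over all libraries and H2BC4 at 1.64. H2BC11 and H2AC11, 292 bases apart, had log2 differences of 0.25 and 0.27, of which the first passed. H2BC21 and H2AC20, 323 bases apart, had 0.17 and 0.28 and neither passed. In the other pairs a partner was below the filter: H2BC12 stood at 139 FPKM and its partner H2AC12 at 0.152.

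Near-identical copies limit what single genes can show. The nearest other member of the same class had a median identity over the coding bases of 93.2% for H2B, 90.7% for H2A, 88.1% for H3, 86.2% for H4 and 76.5% for H1, and 8 genes had a coding sequence identical to that of another. At least one 50-base stretch was shared with another gene's transcript in 41 of the 71 genes, and over 50% of the stretches in 17. The search covered both strands. It includes sequence shared with genes annotated over the same bases, as for H3C4, H2AC7, H2AC15, H3-7 and H2AC17, and not only copies elsewhere. Of these 17, 5 were tested: H2BC12, H4C12 (100%), H3C13 (80.4%), H2AC13 (62.3%) and H2AC14 (83.7%), and none of them was called. The 6 called genes shared at most 13.6% of their 50-base stretches (H2BC17) and none of their 100-base stretches. How reads with several matching places were counted is not given in the sources used here.

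Of the 48 untested genes, 12 were listed at 0 in every library. A count of 0 allows up to 3 reads per library, worth 0.0738 to 0.211 FPKM on these genes. In 5 of the 12 (H3C4, H2AC7, H2AC15, H3-7 and H2AC17) at least 88.0% of the exon lies under another annotated gene, and whether reads in such overlaps were dropped was not tested. The strand setting of the counting is not given in the sources used here, so reads from overlapping genes cannot be told apart. Together the 48 genes had 295 to 526 reads per library.

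Among the untested genes 36 had reads, 29 reached 0.1 FPKM in a library, and 19 had at least 10 reads in a library. H2BC7 (HIST1H2BF) had 14, 8 and 8 reads with mimic and 6, 3 and 4 with scramble, with no overlap of the groups in FPKM. H1-3 (HIST1H1D) had 5, 5 and 9 reads with mimic and 19, 11 and 17 with scramble, the opposite order. Each gave p = 0.1 in an exact two-sided permutation test, the smallest that 3 against 3 libraries allow. The shares of 1 of 19 in each direction stand beside 9.91% higher and 10.1% lower without overlap among 5823 genes chosen by the same rule.

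The other genes of this kind had overlapping groups. Their ratio of the mimic mean to the scramble mean was below 1 for most of them, down to 0.299 for H2AC18. It was above 1 for H1-4 (1.14), H4C11 (1.20), H4C15 (1.57), H4C5 (1.30) and H4C14 (1.05). H1-4 had a mean of 0.433 FPKM over all libraries, H2BC8 of 0.405, H3C1 of 0.379, H2BC26 of 0.371, H2AC16 of 0.343 and H2BC13 of 0.311. H4C3, H4C16, H2BC15, H2BC18, H4C11, H2AC18, H2BC9, H4C15 and H4C5 lay between 0.204 and 0.272 FPKM. H2BC6 and H4C14 lay below 0.1 FPKM over all libraries, and reached it in a library. Under 10 reads in each library but at or above 0.1 FPKM in 1 of them were H4C4, H1-5, H2AC19, H2BC10, H2AC4, H2AC12, H4C1, H2AC21, H3C7 and H2BC14. With fewer than 10 reads in each library, differences between groups were not detectable at this depth for these genes.

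**Figure D3:**
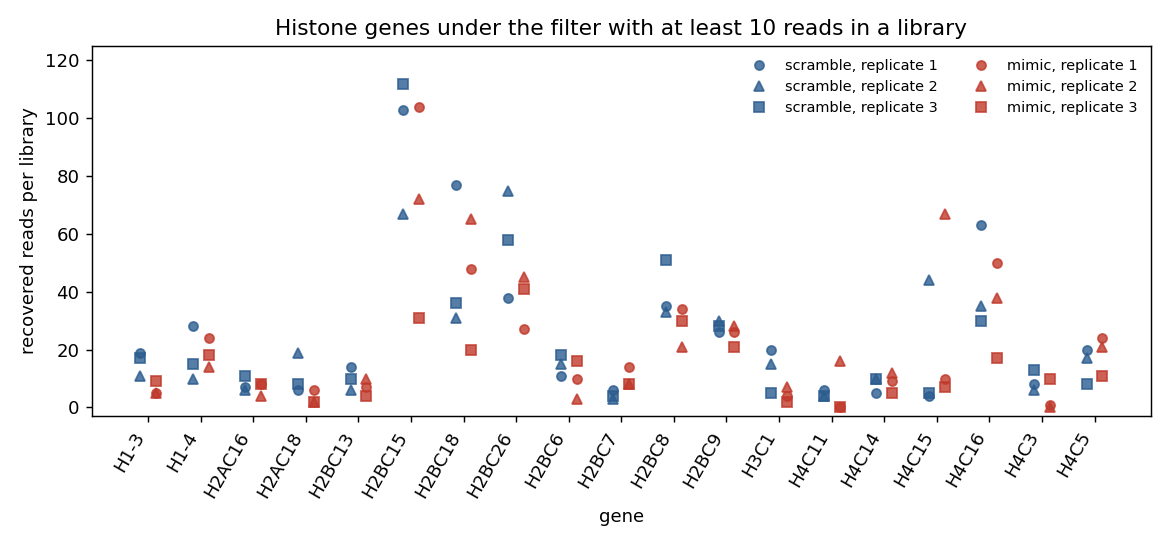
Recovered reads per library for the 19 histone genes under the filter with at least 10 reads in a library, with scramble in blue, mimic in red and the replicate number as the marker shape. H2BC7 and H1-3 are the 2 genes whose groups do not overlap in FPKM.

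Genes that make, hold or replace these histones were read from 4 lists. The first held 44 genes of histone transcription and 3′ end processing, all tested, of which 3 were called higher and 15 lower, beside 18.7% and 16.8% of all tested genes, with a median log2 difference of -0.11. SLBP had 27.2, 24.3 and 23.4 FPKM with mimic and 29.6, 30.4 and 31.3 FPKM with scramble. All mimic libraries lay below all scramble libraries, and the log2 difference was -0.28 (SE 0.058, limma adjusted p = 0.00864). NPAT, the transcriptional activator of the clusters, had 2.39 ± 0.269 and 2.42 ± 0.184 FPKM, a log2 difference of -0.01 (SE 0.075, limma adjusted p = 0.898).

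In the same list ZNF473, a zinc finger protein of the 3′ processing complex, fell by 0.49 on the log2 scale, from 2.89 ± 0.0945 to 1.77 ± 0.0524 FPKM. ERI1, the exonuclease that trims histone mRNA ends, fell by 0.46, LSM7, a subunit of the Lsm ring in mRNA decay, by 0.42, and the S phase transcription factor E2F1 by 0.30. LSM11, a subunit of the U7 particle, rose by 0.30, from 1.34 ± 0.0470 to 1.88 ± 0.194 FPKM, and CTIF, which binds the cap-binding complex in histone mRNA translation, rose by 0.25. YY1AP1 rose by 0.13, a call lost in 13 of 17 settings.

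Of the 29 tested histone chaperones, the proteins that carry histones to and from DNA, 2 were called higher and 9 lower, beside the same 18.7% and 16.8%, with a median of -0.12. HJURP, the chaperone of the centromeric H3 variant, fell by 0.46, ASF1B by 0.28, DAXX by 0.25 and MCM2, a helicase subunit that also binds H3 and H4, by 0.23. UBN1, of the HIRA complex that deposits H3.3 independently of DNA replication, rose by 0.41, and ASF1A rose by 0.28.

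The replication-independent variants, histones mostly made from polyadenylated mRNA and not tied to S phase, had 11 tested genes with 1 called higher and 3 lower, few genes to set beside 18.7% and 16.8%, and a median of -0.07. H3-3B, which encodes H3.3, had 112, 104 and 108 FPKM with mimic and 98.4, 96.8 and 97.3 FPKM with scramble, and the groups did not overlap. Its log2 difference was 0.14 (SE 0.040, limma adjusted p = 0.0252). H2AZ1 fell by 0.28, from 102.5 ± 6.71 to 84.3 ± 4.72 FPKM, H2AX by 0.23 and MACROH2A1 by 0.18. The calls of H3-3B, H2AX and MACROH2A1 were lost in 6, 9 and 5 of 17 settings.

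Genes of DNA replication and S phase were mostly called lower: of 38 tested genes 28 were lower and 0 higher, with a median of -0.22. RRM2, the small subunit of ribonucleotide reductase, had 30.3, 30.5 and 29.3 FPKM with mimic and 61.9, 60.3 and 59.7 FPKM with scramble, 2 tight groups far apart, and fell by 0.99 on the log2 scale (SE 0.036, limma adjusted p = 1.04e-05). MCM7 fell by 0.52, CDC45 by 0.41 and TYMS, which makes thymidylate, by 0.38. SLBP and MCM2 are in this list as well. The share called lower, 28 of 38, stands beside 16.8% of all tested genes, and the difference between this list and the histone genes was not tested.

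**Figure D4:**
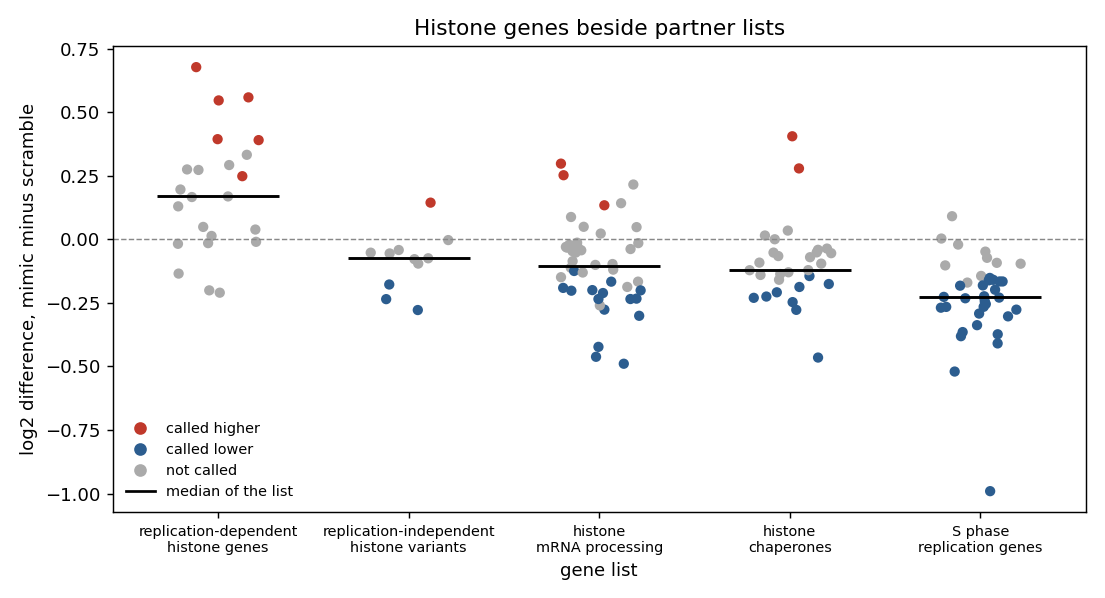
Log2 difference of FPKM + 1, mimic minus scramble, of each tested gene in the histone family and the 4 partner lists, with calls in red (higher) and blue (lower) and the list median as a line. The medians are 0.17 for the replication-dependent genes and -0.07, -0.11, -0.12 and -0.22 for the partner lists.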

How the data were processed

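RNA-seq libraries, 3 with mimic and 3 with scramble, were grouped by title. The submitters' processing notes list build GRCh38, HISAT2 2.1.0, Trimmomatic 0.39, DESeq2 1.26.0 and featureCounts 2.0.1. For the annotation release, counting options and FPKM formula, nothing is given in the sources used here. FPKM values for 58051 genes were deposited by the authors; the table held 0 columns of other samples. Their second deposited table gives 401 genes with a signal (the mean normalized count), a log2 fold change, a score (the test statistic) and p-values, per the file headers.

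Names and gene models came from GENCODE 29 (57447 identifiers matched). FPKM times union exon length gave whole reads, within 0.02 reads, for 95.6% to 95.9% of low values per library. The scaling totals, used as depths, were 58.6, 54.0 and 48.0 M (mimic) and 62.7, 52.8 and 53.5 M (scramble). FPKM values are not counts, so log2(FPKM + 1) was fitted with limma 3.58.1 and its variance trend under R 4.3.3, without covariates, for the 12912 genes whose mean reached 0.5 FPKM, adjusted by Benjamini-Hochberg at 0.05 over all of them; the step was tested on simulated data. Differences on this scale understate changes of low genes. Members below the filter with at least 10 reads in a library had exact permutation tests. Stem-loops, shared stretches, coding identity and motifs were searched by exact match or position by position (Python 3.11.15). Named genes were all members at 0.5 FPKM in the mean or 0.1 FPKM in a library, up to 4 called genes per direction of each partner list, SLBP and NPAT. Members below both levels are named only for overlaps or copies. Alternatives covered the pseudocount, filter, scaling, variance model, replicate block, recovered reads and each library left out. The members and lists were chosen with earlier results of these data known.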

Additional observations from a re-analysis of the deposited data

How the results depend on the processing

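The count of histone genes called higher was 6 and lay between 3 and 8 under 17 alternatives. It was 3 with no filter on low values, where 59 histone genes were tested and the adjustment ran over more genes, and between 5 and 6 with each library left out in turn. The count called lower was 0, except 1 (H2AC25) without mimic replicate 1, so between 0 and 1 over the libraries left out. H2AC6 and H2BC5 were called under all 17, and H2BC17 under the 16 that tested it; H4C8 lost its call with no filter (adjusted p = 0.0547). Over all genes 4584 were called, with 3290 to 5029 under the alternatives and 3387 to 3998 with a library left out. The summed H2A ratio was 1.32 in recovered reads per M reads in place of 1.23, since long gene models weigh more there; leaving out libraries gave 1.20 to 1.27 for H2A, 1.11 to 1.21 for H1, 1.11 to 1.17 for H2B, 1.10 to 1.19 for H3, 1.03 to 1.10 for H4 and 1.13 to 1.17 for all.

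With the replicate number as a block, 5 histone genes were higher: H1-2 passed (adjusted p = 0.0171) while H2BC11 (0.0583) and H2BC4 (0.0730) did not. The same numbers correlated at -0.06, 0.24 and 0.05 in their deviations from the group means, so the numbers do not pair the samples by this check, and not every sample correlated best with its own number (mimic replicate 1 with scramble replicate 3, 0.23).

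Some genes without a call changed sign. On the TPM scale the log2 difference of H2AC14 was 0.005017 and that of NPAT 0.001204. With a library left out, log2 differences ran from -0.0005543 to 0.1198 for H4C12, from -0.1785 to 0.1063 for H2AC8, from -0.1739 to 0.2106 for H3C3, from -0.1686 to 0.1152 for H2AC14, from -0.1613 to 0.1154 for H3C2 and from -0.07447 to 0.03854 for NPAT. The cause was not tested. Depth limits 10 of the 23 tested genes, which had under 50 reads in some library.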

Other observations

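H4C15 (HIST2H4B, chromosome 1), an H4 gene of the HIST2 cluster, had 10, 67 and 7 reads with mimic and 4, 44 and 5 with scramble, so replicate 2 of both groups was high. Of the 50-base stretches of H4C15, 97.2% also occur in transcripts of other genes, mainly its near-identical copy H4C14 (HIST2H4A). H4C14 had 9, 12 and 5 reads with mimic and 5, 10 and 10 with scramble. H4C11 (HIST1H4J) had 16 reads in mimic replicate 2, 0 in the other mimic libraries, and 6, 4 and 4 with scramble. H2AC18 and H2AC19, which have the same coding sequence, reached 19 and 9 reads in a library.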
